A study of Mus musculus with 6 samples.

Results

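The Ms4a genes were followed in CD4+ CD8+ double-positive thymocytes of Ets1-/- mice and wild-type (WT) mice, a stage of T-cell development in the thymus at which both coreceptors are on the surface. Of 22180 genes with a probe set annotated to them alone, 20 were Ms4a genes, and 8 of these are described here: Ms4a1, Ms4a4b, Ms4a6b, Ms4a4c, Ms4a4a, Ms4a6c, Ms4a6d and Ms4a7. They were chosen by their levels on these 6 arrays and by the difference between the groups, so that difference is given as a description and is used as no evidence. Each of the 8 genes had 1 probe set naming it alone, which was taken as its level, and 0 probe sets naming several genes included any of them.

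The study put total RNA on 6 single-channel Affymetrix arrays, 3 from Ets1-/- mice and 3 from WT mice. All mice were C57BL/6 and 5 to 6 weeks old, and the labels name no other allele or agent. Thymocytes were crosslinked with formaldehyde and then enriched on magnetic columns, first through CD8 and then through CD4. Litter-mate cohorts served as biological replicates, but the sources used here do not say whether an array held RNA of 1 animal or of several. The p-values reflect how these 6 preparations vary. The probe set of Ets1, the ETS-family transcription factor deleted in these mice, read 9.27, 9.22 and 8.79 on the log2 scale in Ets1-/- arrays and 9.11, 9.32 and 9.17 in WT arrays. Which part of Ets1 that probe set covers is not given, so it does not check the genotype labels. The transcripts of both coreceptors were far above 4.13, the median signal of all probe sets, in both groups, which cells of a single-positive stage would also give in part. Cd4 averaged 11.08 ± 0.07 in Ets1-/- and 10.94 ± 0.06 in WT, and Cd8a averaged 10.91 ± 0.05 in Ets1-/- and 11.00 ± 0.03 in WT (log2 signal, SD, n = 3 each). The arrays had not been scaled to a common distribution, and Ets1-/- replicate 1 had a median over all probe sets of 3.66, against 4.31 and 4.19 on the other Ets1-/- arrays and 4.21 to 4.33 on WT arrays. The median difference over all genes was -0.22, and -0.01 after median centring.

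MS4A proteins are small proteins that cross the plasma membrane several times, and many of them sit beside immune receptors and tune their signals. The genes lie side by side in a cluster, and blood cell lineages use different members. CD20, the product of Ms4a1, is a surface protein of B cells and a target of therapeutic antibodies in human patients. In the mouse, Ms4a4b and Ms4a6b are genes of T cells, Ms4a4c is found in T cells and monocytes, and Ms4a4a, Ms4a6c, Ms4a6d and Ms4a7 are mainly genes of monocytes and macrophages.

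Every one of the 8 genes had a higher mean in the Ets1-/- arrays, and for 7 of them the Ets1-/- values all lay above the WT values. The exception was Ms4a6d, whose groups overlapped. Over all 22180 genes, 5.76% had the Ets1-/- arrays wholly above and 16.1% wholly below the WT arrays. In the limma fit across all genes, 5 of the 8 genes were past an adjusted p of 0.05, all of them higher, where 1.29% of all genes were called higher, 0.568% lower and 1.86% in either direction. The calls over all genes were 287 higher and 126 lower, and 484 higher and 423 lower with a pseudocount of 16 on the linear scale. Because the 8 genes were chosen with this contrast in view, nothing is read from these counts. Their median log2 difference was 2.94. In Ets1-/- arrays all 8 means were above 4.13, the median signal of all probe sets, and in WT arrays 4 of the 8 were. A signal from whole cell preparations does not separate more cells of a type from more RNA per cell.

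**Figure D1:**
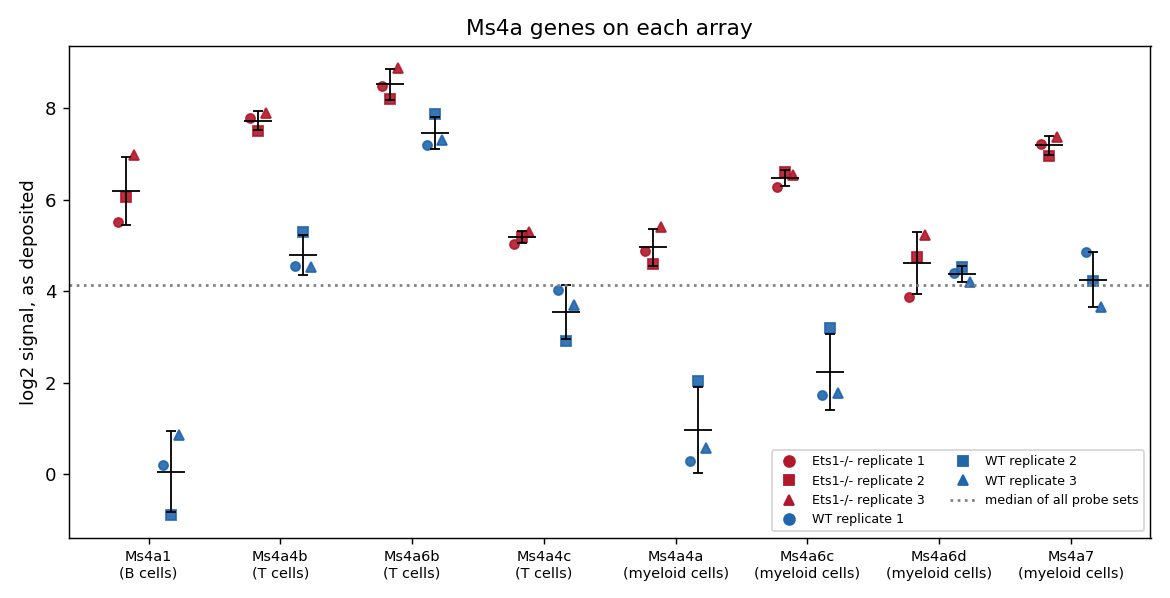
Deposited log2 signal (vertical axis) of the 8 Ms4a genes on each array, with Ets1-/- left of WT for each gene; symbols mark the replicate number, the bars the mean and SD of 3 arrays, and the dotted line the median of all probe sets. The groups are apart for every gene but Ms4a6d.

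Ms4a1 had the largest difference of the 8 genes. On the log2 scale its signal was 5.52, 6.07 and 6.98 in Ets1-/- replicates 1 to 3, against 0.20, -0.91 and 0.85 in WT replicates 1 to 3. The lowest Ets1-/- array was thus 4.67 above the highest WT array. The means were 6.19 ± 0.74 in Ets1-/- and 0.04 ± 0.89 in WT (SD, n = 3 each), a log2 difference of 6.14 ± 0.52 (SE). Ranked among the 41345 probe sets of each array, Ms4a1 stood at percentiles 76.6, 76.5 and 85.0 in Ets1-/- and at percentiles 2.0, 1.1 and 2.8 in WT. Its WT values therefore lay at the extreme low end of the arrays, where the size of a log2 difference depends on how low signals were treated. With a pseudocount of 16 on the linear scale the difference was 2.39.

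Among the T-cell genes, Ms4a4b, a membrane protein of naive and T helper 1 cells in the mouse, was 7.80, 7.51 and 7.90 in Ets1-/- arrays and 4.55, 5.29 and 4.54 in WT arrays. The 3 Ets1-/- values lay within 0.4 of each other and at least 2.22 above any WT value. The mean was 7.74 ± 0.20 in Ets1-/- and 4.80 ± 0.43 in WT (SD, n = 3 each), a log2 difference of 2.94 ± 0.28 (SE). Unlike Ms4a1, it was in the middle of the signal range in WT, at percentiles 57.3, 68.3 and 55.1, and it reached percentiles 92.6, 89.3 and 91.8 in Ets1-/-. Its difference with the pseudocount was 2.38.

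Ms4a6b had the highest signal of the 8 probe sets in both groups, although signals of different probe sets do not measure relative RNA levels. It read 8.50, 8.21 and 8.88 in Ets1-/- arrays and 7.21, 7.87 and 7.30 in WT arrays, with a gap of 0.35 between the nearest arrays. The log2 difference was 1.07 ± 0.29 (SE), and 1.01 with the pseudocount. Ms4a4c was 5.04, 5.19 and 5.30 in Ets1-/- arrays and 4.03, 2.90 and 3.70 in WT arrays, a log2 difference of 1.63 ± 0.32 (SE), and 0.90 with the pseudocount.

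Ms4a4b and Ms4a4c are neighbouring copies, and their promoters are closely related. Of 171 pairs of Ms4a promoters, each 300 bases from RefSeq (GRCm38.p6) with 250 bases before and 50 after the annotated start, this pair shared the most identical bases, 223 of 290 aligned, which is 76.9%. GGAAGT, which extends the shorter GGAA that ETS-family factors bind, is called the ETS core here. The stretches from 100 bases before to 50 after the start are shown because they hold the same match to GGAAGT close to the start. They run from 5′ to 3′ with the match in capitals, at chr19:11443458-11443607 on the plus strand for Ms4a4b and chr19:11407561-11407710 on the plus strand for Ms4a4c.
Ms4a4b: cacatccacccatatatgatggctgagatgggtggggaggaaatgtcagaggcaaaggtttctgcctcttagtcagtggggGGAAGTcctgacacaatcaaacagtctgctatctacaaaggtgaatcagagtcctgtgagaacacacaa
Ms4a4c: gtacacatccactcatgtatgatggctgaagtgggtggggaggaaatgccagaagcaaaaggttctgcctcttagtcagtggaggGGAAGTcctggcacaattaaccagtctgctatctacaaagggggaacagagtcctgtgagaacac
The match begins 19 bases before the start of Ms4a4b and 15 bases before that of Ms4a4c. With these related promoters, the log2 difference was 2.94 for Ms4a4b and 1.63 for Ms4a4c. Whether the probe sets of such close copies pick up each other's RNA was not tested, since probe sequences were not used here.

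The myeloid genes differed widely among themselves, from Ms4a6c and Ms4a4a with the larger log2 differences to Ms4a6d, whose groups overlapped. Ms4a6c was 6.28, 6.60 and 6.55 in Ets1-/- arrays and 1.73, 3.19 and 1.77 in WT arrays. Its log2 difference was 4.24 ± 0.41 (SE), and 2.31 with the pseudocount. WT replicates 1 and 3 put Ms4a6c at percentiles 5.6 and 5.4 of all probe sets and WT replicate 2 at 21.8, while the Ets1-/- arrays put it at 83.2, 81.9 and 81.2. Ms4a4a, whose human counterpart is a surface marker of alternatively activated macrophages, was 4.88, 4.59 and 5.40 in Ets1-/- arrays and 0.28, 2.03 and 0.56 in WT arrays. The log2 difference was 4.00 ± 0.47 (SE). As for Ms4a1, the WT values were near the bottom of the arrays, at percentiles 2.0, 6.6 and 2.4, and the difference was 1.38 with the pseudocount.

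Ms4a7, a gene of tissue macrophages, was 7.22, 6.97 and 7.38 in Ets1-/- arrays and 4.86, 4.23 and 3.66 in WT arrays. The lowest Ets1-/- value exceeded the highest WT value by 2.12. The mean was 7.19 ± 0.20 in Ets1-/- and 4.25 ± 0.60 in WT (SD, n = 3 each), a log2 difference of 2.94 ± 0.33 (SE), and 2.19 with the pseudocount. Ms4a6d, a macrophage gene whose product acts with MHC class II and Vsig4 in the mouse, was 3.88, 4.75 and 5.22 in Ets1-/- arrays and 4.40, 4.53 and 4.19 in WT arrays. Its Ets1-/- values spread on both sides of the WT values, with a log2 difference of 0.25 ± 0.35 (SE). The lowest Ms4a6d value was on Ets1-/- replicate 1, the array with the lowest median, and without that array the difference was 0.61. Without Ets1-/- replicate 3 it was -0.05.

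The pair Ms4a6b and Ms4a6c also had related promoters and very different values. Their promoters shared 189 of 220 aligned bases, which is 85.9%, over a shorter alignment than that of Ms4a4b and Ms4a4c. Both held 2 matches to GGAAGT, 1 in each orientation, the second appearing as its reverse complement ACTTCC. The stretches are at chr19:11518459-11518608 on the plus strand for Ms4a6b and chr19:11469268-11469417 on the plus strand for Ms4a6c, with matches in capitals.
Ms4a6b: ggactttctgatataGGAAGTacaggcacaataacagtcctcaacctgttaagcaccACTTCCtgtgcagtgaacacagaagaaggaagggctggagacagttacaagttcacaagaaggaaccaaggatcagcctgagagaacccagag
Ms4a6c: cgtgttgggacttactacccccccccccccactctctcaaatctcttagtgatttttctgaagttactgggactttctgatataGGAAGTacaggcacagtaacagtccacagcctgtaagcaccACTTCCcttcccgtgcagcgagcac
Counted from each annotated start, the matches begin 85 and 43 bases before it in Ms4a6b, and 16 bases before and 25 bases after it in Ms4a6c. The first match and the second are 42 bases apart in Ms4a6b and 41 in Ms4a6c. Compared without gaps, 19 of the 20 bases beside the forward match are the same in both, against 12 of 20 for Ms4a4b and Ms4a4c. An extra base before the match in Ms4a4c shifts the bases compared on that side, so the 12 understates their likeness. The annotated starts of Ms4a6b and Ms4a6c are placed differently relative to the matches. The log2 difference was 1.07 for Ms4a6b and 4.24 for Ms4a6c. The WT percentiles of Ms4a6b were 86.8, 91.6 and 88.1, so this probe set was bright in both groups, while that of Ms4a6c was dim in WT.

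Ms4a7 carried a match in the reverse orientation that begins 15 bases before the start, in the stretch at chr19:11336097-11336246 on the minus strand, shown because its place resembles that in Ms4a4b, Ms4a4c and Ms4a6c.
Ms4a7: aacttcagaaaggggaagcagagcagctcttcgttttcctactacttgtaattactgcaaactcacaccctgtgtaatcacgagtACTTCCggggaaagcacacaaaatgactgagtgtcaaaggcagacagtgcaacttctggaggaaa
A second annotated start of Ms4a7, and the start of Ms4a4a, had 0 matches to GGAAGT in their 300 bases. Both hold the shorter GGAA, which was not searched for. In all, 6 of the 8 genes had 1 or more promoters in the RefSeq table, and 5 of their 7 promoters, each of a different gene, held GGAAGT on either strand, as did 23.8% of 32851 promoters of that length. It was also present in 4 of 12 other Ms4a genes with a promoter in that table (Ms4a3, Ms4a4d, Ms4a12 and Ms4a19). Ms4a12 was not measured on the arrays, so these 12 are not the same set as the 12 other measured Ms4a genes. A match beginning within 30 bases before the start, a window chosen after the matches were seen, was present in 4 of the 7 promoters and in 4.12% of all promoters, and in 1 of the 12 other Ms4a genes. The 7 promoters include the related pairs Ms4a4b with Ms4a4c and Ms4a6b with Ms4a6c, so these counts are not over independent sequences. The longer PU.1 motif GAGGAAGT, which contains the ETS core, was in 0 of the 7 promoters and in 3.20% of all promoters. The octamer ATGCAAAT was in 1 of the 7, that of Ms4a4c (1.74% of all promoters), and the PU.1-IRF composite GGAANNGAA was in 1 of the 7, that of Ms4a6c, where it overlaps the second ETS core (8.24% of all promoters). Among measured genes with a promoter in the table, 71 of 4697 with the ETS core were called higher, 1.51%, as were 137 of 12293 without it, 1.11%. A match describes the letters in these windows and does not show that a factor binds there.

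**Figure D2:**
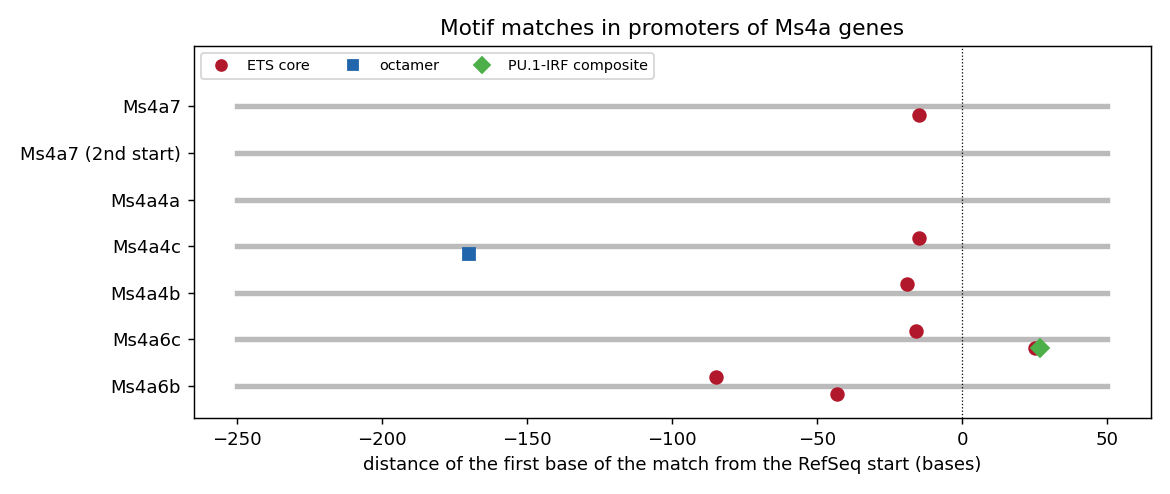
Position of motif matches in the 7 RefSeq promoters of the Ms4a genes, as distance in bases from the annotated start (horizontal axis, dotted line at 0); symbols above a bar are in the direction of the gene and those below it in the reverse direction. The first ETS core lies 15 to 19 bases before a start in Ms4a7, Ms4a4c, Ms4a4b and Ms4a6c.

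The order of the differences depended on the scale. On the deposited log2 values it ran from Ms4a1 at 6.14 through Ms4a6c at 4.24 and Ms4a4a at 4.00 to Ms4a4b and Ms4a7, both at 2.94, then Ms4a4c at 1.63, Ms4a6b at 1.07 and Ms4a6d at 0.25. With a pseudocount of 16, the 4 genes Ms4a1, Ms4a4b, Ms4a6c and Ms4a7 came within 0.2 of each other, at 2.39, 2.38, 2.31 and 2.19. Ms4a4a followed at 1.38, then Ms4a6b at 1.01, Ms4a4c at 0.90 and Ms4a6d at 0.17. Median centring raised every difference by about 0.2, to 6.36 for Ms4a1 and 0.46 for Ms4a6d.

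**Figure D3:**
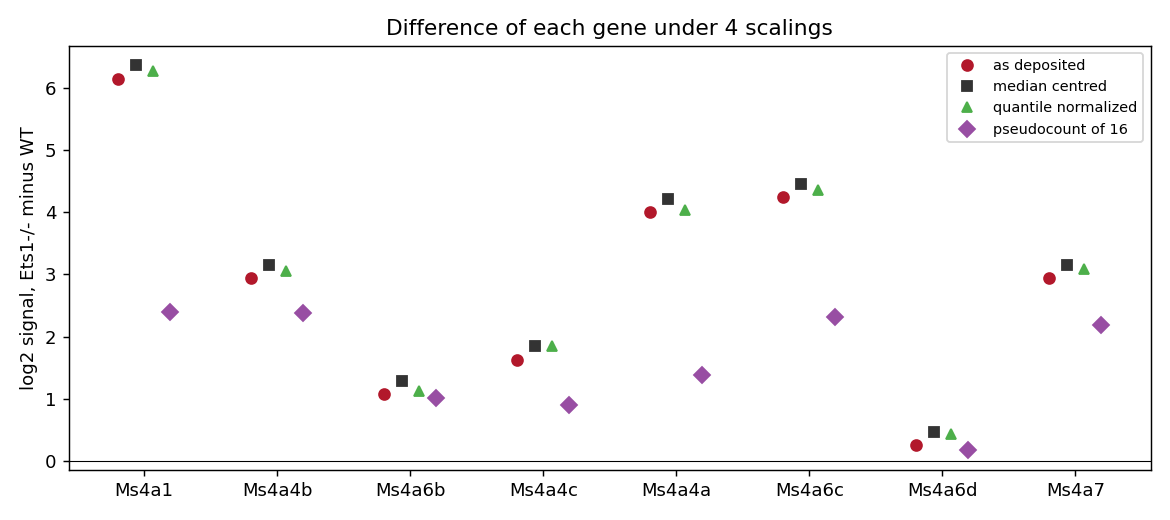
Log2 difference of each gene, Ets1-/- minus WT (vertical axis), as deposited, after median centring, after quantile normalization and with a pseudocount of 16 on the linear scale. The pseudocount lowers Ms4a1 to 2.39 and Ms4a4a to 1.38 and moves Ms4a6b little, to 1.01.

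The order of the replicates was read on the deposited values, which had not been scaled between arrays. Within the Ets1-/- group, replicate 3 had the highest value for 7 of the 8 genes, the exception being Ms4a6c. Replicate 2 had the lowest value for Ms4a4b, Ms4a6b, Ms4a4a and Ms4a7, while replicate 1 had the lowest for Ms4a1, Ms4a4c, Ms4a6c and Ms4a6d. By percentile within each array, Ets1-/- replicate 1 was instead the highest for Ms4a4b, Ms4a4c, Ms4a6c and Ms4a7, at 92.6, 71.5, 83.2 and 89.6. The order of the Ets1-/- arrays thus depended on the scale. Among WT arrays, replicate 2 was the highest for Ms4a4b, Ms4a6b, Ms4a4a, Ms4a6c and Ms4a6d and the lowest for Ms4a1 and Ms4a4c.

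Likeness of pattern was measured as the root mean square difference over the 6 arrays between values centred on each gene's own mean. This measure includes the size of the group difference, on which the 8 genes were chosen, so near genes are those with a similar difference. The closest pair of the 8 genes was Ms4a4a and Ms4a6c, at 0.30, followed by Ms4a4b and Ms4a7 at 0.43, a T-cell gene and a macrophage gene. Ms4a1 was farthest from the rest, 1.41 from Ms4a6c and 3.01 from Ms4a6d. Outside the family, the gene nearest to Ms4a1 was Igkj1, a joining segment of the immunoglobulin kappa chain, at 0.45, and no other named gene came within 0.5; Rnase2a and Mmp12, the macrophage elastase, followed at 0.50 and 0.58. Ms4a4b was nearest to the myeloid receptor Sirpa at 0.15, then to Plbd1 and the cathepsin Ctss, both at 0.17. The nearest to Ms4a7 were Pld4, Bcl2a1a and S100a4 at 0.11, 0.14 and 0.16. Ms4a6c and Ms4a4a shared their nearest genes outside the family, the secreted phospholipase Pla2g2d (0.20 and 0.30) and S100a6 (0.26 and 0.28). For Ms4a4c they were the class I gene H2-T10, Pde2a and Ppm1e at 0.11, 0.12 and 0.15, and for Ms4a6b Pdcd1lg2, Ncf4 and St3gal1 at 0.15, 0.17 and 0.18. Ms4a6d resembled Bloc1s3, Ice2 and Ier2 (0.06 to 0.08), but 12164 named genes lay within 0.5 of it, so this likeness singles out little. Named genes within 0.5 numbered 1068 for Ms4a6b, 180 for Ms4a4c, 83 for Ms4a7 and 66 for Ms4a4b. They numbered 10 for Ms4a6c and 8 for Ms4a4a.

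Marker genes of the lineages that use Ms4a genes moved in the same arrays, and their part in the Ms4a differences was not tested. Of 12 measured B-cell markers, 6 were called higher and 0 lower, with a median log2 difference of 2.34 against -0.22 over all genes. Their summed linear signal was 514, 700 and 1150 in Ets1-/- replicates 1 to 3 and 131, 150 and 193 in WT replicates 1 to 3. On these unscaled values the Ets1-/- arrays followed the same order as for Ms4a1, and also as for Ms4a4c and Ms4a6d. The B-cell receptor chain Cd79a, which is found beside CD20, rose by 4.20 ± 0.42 (SE; limma adjusted p = 0.00293), and Cd79b was at 1.78 (adjusted p = 0.0511). Fcrla, Bank1 and Pou2af1 rose by 3.05, 2.71 and 2.98 (adjusted p = 0.000910, 0.00602 and 0.0263). The count of B-cell markers fell to 3 without Ets1-/- replicate 3 or WT replicate 1, and the call of Pou2af1 held only without Ets1-/- replicate 1 or WT replicate 3 (highest limma adjusted p = 0.0933). Of 7 plasma-cell markers, 2 were called higher, the joining chain Jchain by 5.30 and Mzb1 by 3.95 (adjusted p = 0.00225 and 0.0109), while Xbp1 and Prdm1 were at 0.92 and 0.94 (adjusted p = 0.122 and 0.306). Mzb1 lost its call without Ets1-/- replicate 2 (adjusted p = 0.0567), which left 1 plasma-cell marker called.

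Macrophage and monocyte markers were the most uniform list, with 13 of 16 called higher, 0 lower and a median of 2.57. Their summed signal was 4640, 4420 and 5970 in Ets1-/- arrays and 1070, 1080 and 867 in WT arrays. On the deposited values Ms4a4a and Ms4a7 followed the same order over the Ets1-/- arrays, with replicate 3 highest and replicate 2 lowest. Ms4a6c and Ms4a6d did not. The T-cell genes Ms4a4b and Ms4a6b had this order too. The colony-stimulating factor receptor Csf1r rose by 3.31, the lysosomal protease Ctss by 2.78, the pore-forming Mpeg1 by 3.05 and the complement chain C1qa by 2.85 (limma adjusted p = 0.00140, 0.00197, 0.00244 and 0.00232). The uncalled Cd14, Cd163 and Timd4 were at 0.13, 0.16 and 0.04 (limma adjusted p = 0.857, 0.858 and 0.961). With 1 array left out, 10 to 12 macrophage and monocyte markers were called, and C1qc, Fcgr3, Lyz2 and Cd68 each lost their call in some of these fits. The list of 11 dendritic-cell markers was mixed, with a median of 0.03. Of these, 3 were called higher and 0 lower, namely Itgax by 3.67, Irf8 by 2.51 and Bst2 by 1.54 (adjusted p = 0.0173, 0.00232 and 0.0203), while Clec10a was at 1.26 (adjusted p = 0.134). Chosen after their values were seen, Xcr1, Zbtb46, Batf3, Cd209a and Flt3 were at -1.15, -0.38, -0.25, -0.19 and 0.03 (adjusted p = 0.266, 0.570, 0.666, 0.765 and 0.973). The remaining markers of this list, Siglech and Ccr9, were at 0.81 and -0.03 (limma adjusted p = 0.350 and 0.966). Of the 3 called genes, only Irf8 kept its call whichever array was left out, and it alone was called without Ets1-/- replicate 2 or 3.

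Markers of mature T cells were higher in part, with 5 of 13 called higher, 0 lower and a median of 1.82. With a pseudocount of 16 on the linear scale 1 gene was called lower, Slfn2, and with an intensity trend 2, Slfn2 and Cd52. Their summed signal was 3120, 2740 and 3410 in Ets1-/- arrays and 2410, 2600 and 2200 in WT arrays. Over Ets1-/- arrays, on the deposited values, this sum had the order of Ms4a4b, Ms4a6b and the macrophage sum, but not that of Ms4a4c. The summed signals of the groups were thus closer here than for B cells or macrophages. Klf2 and S1pr1, which govern exit from the thymus, rose by 3.60 and 3.54 (limma adjusted p = 0.000578 and 0.00110), and Itgb7 and Gimap3 rose by 1.90 and 3.07 (adjusted p = 0.0460 and 0.0305). The count was 2 without any 1 of the Ets1-/- arrays and 3 without WT replicate 1 or 3. Itgb7 kept its call only without WT replicate 2, and Gimap3 lost it without WT replicate 2 or any 1 Ets1-/- array (adjusted p up to 0.134 and 0.107). Chosen after their values were seen, Slfn2, Cd52 and Gimap6 had Ets1-/- arrays wholly below WT arrays, at -0.80, -0.46 and -0.39 (adjusted p = 0.187, 0.416 and 0.491). The 11 natural killer and cytotoxic markers had a median of 0.81, with 3 called higher and 0 lower, namely Gzmb by 4.53, Nkg7 by 3.23 and Ccl5 by 3.41 (adjusted p = 0.000578, 0.00174 and 0.00217), while Klrd1 was at 1.24 (adjusted p = 0.0578). Prf1, Ncr1, Klrb1c and Tbx21, also chosen after their values were seen, were at -0.56, -0.55, -0.49 and -0.11 (adjusted p = 0.354, 0.497, 0.581 and 0.859). The remaining uncalled markers of this list, Il2rb, Gzma and Eomes, were at 4.08, 0.81 and 0.25 (limma adjusted p = 0.159, 0.410 and 0.743). Il2rb had a WT SD of 2.71.

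**Figure D4:**
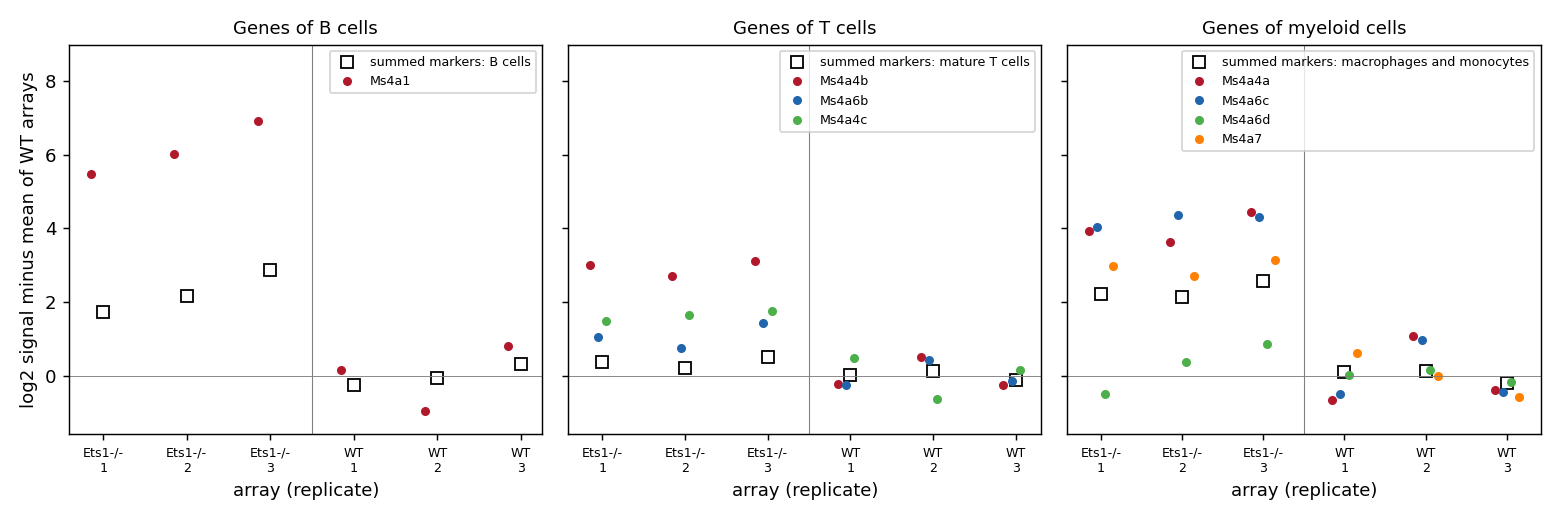
Log2 signal of each array relative to the mean of the WT arrays (vertical axis), by array (horizontal axis, Ets1-/- left of WT), for the Ms4a genes of B cells, T cells and myeloid cells (filled circles) and for the summed linear signal of the marker list of the matching lineage (open squares). A sum is set mostly by its brightest genes, so its height is not comparable with that of a single gene. The plot shows the order of the arrays on values not scaled between them. For the Ets1-/- arrays it is the same for Ms4a1 and the B-cell sum. Ms4a4c and Ms4a6d also had that order, and the macrophage and mature T-cell sums shared another. An order over 3 arrays therefore does not tie a gene to a lineage.

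Markers of the other lineages had 0 calls on the deposited values. The lists for mast cells and basophils (10 measured), neutrophils (8), erythroid cells (5), thymic epithelium (7) and fibroblasts and endothelium (8) each had 0 genes called by limma, with 0, 1, 0, 0 and 2 genes lower and 0 higher at an unadjusted p under 0.05. Their medians were -0.03, -0.43, -0.54, -0.38 and -0.47. Pecam1, of the fibroblast and endothelium list, was at -1.26 (limma adjusted p = 0.100). It was called lower under 5 alternatives, among them the pseudocount of 16 (limma adjusted p = 0.0277). Its WT mean was 7.68, where the median WT level of that list was 3.44, so its signal need not come from endothelium. The double-positive list had a median of -0.01 over 12 measured genes and 1 call, the pre-T-cell receptor chain Ptcra, higher by 1.50 (adjusted p = 0.0282). That call was kept only without Ets1-/- replicate 1 when single arrays were left out (adjusted p up to 0.116).

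Proteins that work with MS4A family members were then examined, of which 7 of 13 genes were called higher and 0 lower, with a median of 2.60. Genes of MHC class II, whose products associate with CD20 in human B cells and with the product of Ms4a6d in mouse macrophages, rose by 3.48 for H2-Aa, 3.65 for H2-Ab1 and 4.11 for H2-Eb1 (limma adjusted p = 0.000527, 0.00110 and 0.00110). The beta-glucan receptor Clec7a, partner of human MS4A4A, was 7.12, 7.21 and 7.71 in Ets1-/- arrays and 5.02, 5.07 and 4.15 in WT arrays, and rose by 2.60 ± 0.32 (SE; adjusted p = 0.00786). Tyrobp, the adaptor of Trem2, rose by 2.68 and Fcer1g, the common Fc receptor chain, by 2.65 (adjusted p = 0.00811 and 0.00347). Trem2 itself was at 1.20 (adjusted p = 0.0806), and Cd40, Vsig4 and Fcer1a were at 0.45, -0.08 and -0.53 (adjusted p = 0.588, 0.919 and 0.528). Tnfrsf18, the T-cell receptor GITR with which the product of Ms4a4b associates in the mouse, did not follow Ms4a4b. It was 6.64, 6.87 and 7.32 in Ets1-/- arrays and 6.88, 7.73 and 7.09 in WT arrays, with a log2 difference of -0.29 ± 0.31 (SE; adjusted p = 0.703).

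None of the other 12 measured Ms4a genes was called by limma. Of these, 11 had a difference below 0, where the median of all genes was itself -0.22, and 7 after median centring. The Ets1-/- arrays lay wholly above WT arrays for 0 of the 12, against 5.76% of all genes, and wholly below for 4 of the 12, against 16.1% of all genes. These 12 are the Ms4a genes left after the others were chosen by level and by this same difference. Their lack of calls and of genes wholly above WT was largely set by that choice. Nothing is therefore read from the comparison of the 12 with all genes. With Tmem176a and Tmem176b, relatives of the family in myeloid cells, 2 of 14 genes were below an unadjusted p of 0.05, both lower. Ms4a2, the beta chain of the mast-cell IgE receptor, averaged 4.57 ± 0.22 in Ets1-/- and 5.01 ± 0.16 in WT (SD, n = 3 each; log2 difference -0.44, adjusted p = 0.483). Ms4a3, a gene of granulocyte and monocyte progenitors, was at 0.04 (adjusted p = 0.971) and Ms4a4d at -0.09 (adjusted p = 0.896). Ms4a20 had the lowest value, -1.07 (adjusted p = 0.315), at means of 0.68 in Ets1-/- and 1.75 in WT, near the bottom of the signal range. Ms4a5, Ms4a8a, Ms4a10, Ms4a13, Ms4a14, Ms4a15, Ms4a18 and Ms4a19 lay between -0.56 and -0.02. Tmem176a was at 0.53 (adjusted p = 0.641) and Tmem176b at 0.37 (adjusted p = 0.739).

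Along chromosome 19 the 7 Ms4a genes whose Ets1-/- arrays lay wholly above the WT arrays did not form a single unbroken run. In RefSeq order the 21 Ms4a genes of the cluster, of which 20 were measured, begin with Ms4a10 and end with Ms4a3. Ms4a1 is number 9 in that order and is followed by Ms4a5 and Ms4a14, at -0.17 and -0.40 (limma adjusted p = 0.832 and 0.640). Numbers 12 to 17 are Ms4a7, Ms4a4a, Ms4a4c, Ms4a4b, Ms4a6c and Ms4a6b, 6 adjoining genes with differences from 1.07 to 4.24. Ms4a4d stands between Ms4a6b and Ms4a6d. Of 29 measured genes among the 15 named protein-coding genes on either side of the cluster, 1 was called higher and 1 lower, with a median of -0.11. The nearest called gene was Slc15a3, a peptide and histidine transporter of myeloid lysosomes, 7 genes before the cluster, which rose by 2.19 ± 0.27 (SE; adjusted p = 0.00811). Next to it Cd6 and Cd5, which encode inhibitory receptors of T cells, were lower. Cd5 was 7.91, 8.22 and 8.54 in Ets1-/- arrays and 10.15, 10.25 and 9.97 in WT arrays and fell by 1.90 ± 0.25 (SE; adjusted p = 0.00937, and 0.0509 without Ets1-/- replicate 2). Cd6 was at -1.41 (adjusted p = 0.0712). On the far side of Ms4a3, 0 of 15 genes were called by limma and 1 was below an unadjusted p of 0.05.

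**Figure D5:**
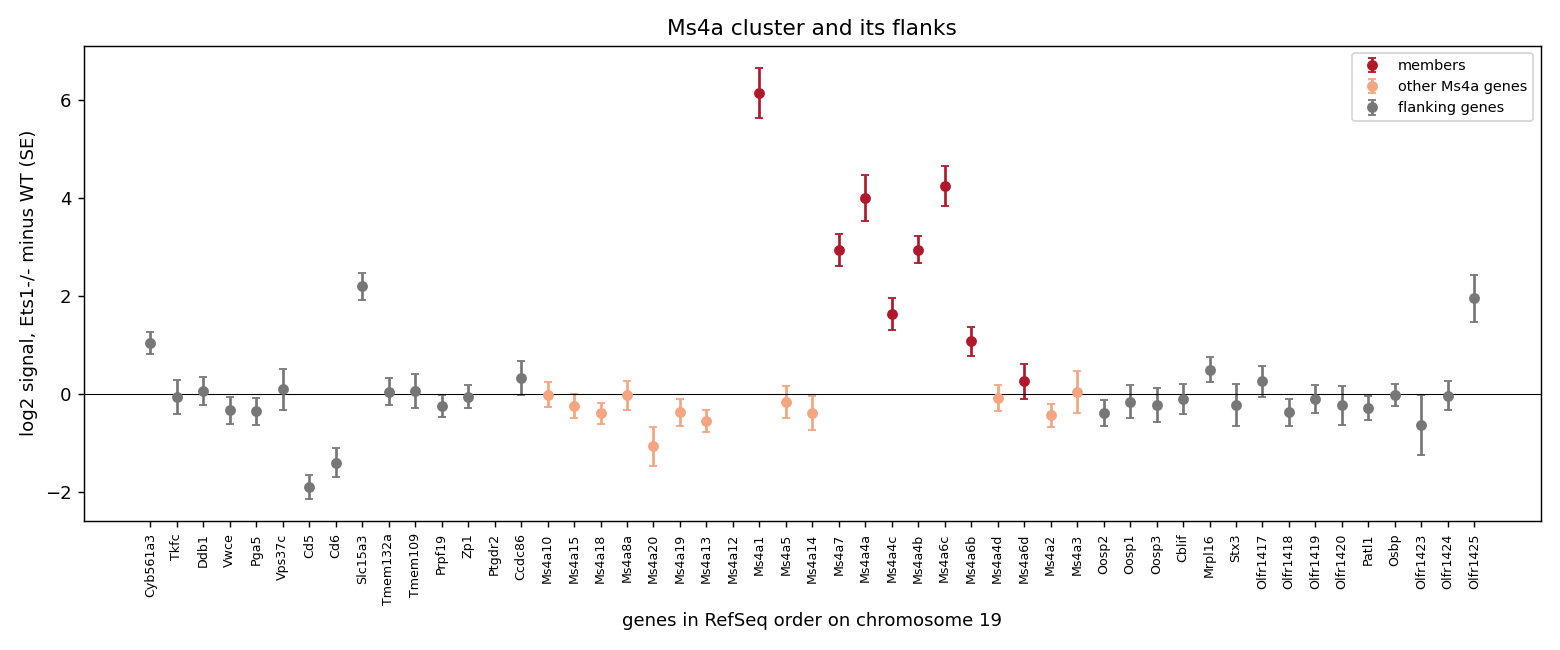
Log2 difference, Ets1-/- minus WT, with its SE (vertical axis) for the Ms4a cluster and 15 named protein-coding genes on each side, in RefSeq order on chromosome 19 (horizontal axis, not to scale); genes without a point had no probe set naming them alone. The higher Ms4a genes lie between Ms4a1 and Ms4a6b, with Ms4a5 and Ms4a14 near 0 among them, and Cd5 and Cd6 lie below 0.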

How the data were processed

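The deposited table holds log2 signals of 41345 probe sets on 6 arrays. Their range, -15.86 to 16.36, is that of a log2 scale. They were made with affy (version not named), per the submitters' processing notes. Nothing in the sources used here gives the background correction, the normalization or the genome build. The number of arrays limits the precision. A table of platform annotation named 1 gene for 23521 probe sets, several for 1814 and none for 16010; 23328 of the first were matched by gene identifier to RefSeq (GRCm38.p6), used for names, gene order and promoters. For each of 22180 genes the probe set with the highest mean over the 6 arrays was kept, with no filter on dim probe sets.

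Ets1-/- minus WT was fitted with limma 3.58.1 in R 4.3.3 (lmFit, eBayes, two-sided, no covariate), with Benjamini-Hochberg adjustment over all genes and a threshold of 0.05. SE is limma's moderated error. Tested on simulated data over 22180 genes, the fit recovered 59.5% of genes given a log2 change of 2 and 94.8% of those given 4, with 3.38% of calls wrong. The simulated noise was independent between genes, no array was shifted as a whole, and all changed genes were raised. These rates therefore need not hold for the real arrays. Promoters were aligned with Biopython 1.88 (global alignment with free ends).

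The Ms4a genes and the gene lists were chosen with earlier results of these data known. Named were the 8 genes, the other Ms4a genes, Tmem176a and Tmem176b, 13 partner genes, up to 4 genes of smallest p per marker list, Cd4, Cd8a, Ets1, Cd5, Cd6, called genes among 15 on each side of the cluster, and the 3 genes most like each Ms4a gene. Cd8b1, also in that rule, had a log2 difference of -0.03. Some genes of the marker lists were not analysed here. Alternatives were the mean of all probe sets, a filter at the median signal, quantile normalization, median centring, a pseudocount of 16, an intensity trend with a robust prior, a replicate block and the omission of each array.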

Additional observations from a re-analysis of the deposited data

How the results depend on the processing

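The differences of the 8 Ms4a genes, which were chosen on this contrast, are given as values only. Over all alternatives the log2 difference was 2.39 to 6.55 for Ms4a1, 2.38 to 3.19 for Ms4a4b, 0.90 to 1.29 for Ms4a6b, 0.90 to 1.88 for Ms4a4c, 1.38 to 4.54 for Ms4a4a, 2.31 to 4.72 for Ms4a6c and 2.19 to 3.24 for Ms4a7. The filter at the median signal removed Ms4a1 and Ms4a4a. Over all genes, 287 were higher and 126 lower in Ets1-/-. The number higher was 513 with quantile normalization, 545 with median centring, 484 with the pseudocount and 618 with the intensity trend. The number lower was 285, 200, 423 and 554 under the same alternatives and 264 above the median signal. Leaving out 1 array gave 145 to 276 higher and 38 to 103 lower. Genes of the lists past the threshold numbered 39, and 27 to 33 with 1 array left out. Of the genes beside the cluster 2 were called, against 4 above the median signal, with median centring, the pseudocount or the intensity trend, and 1 to 3 with 1 array left out. Replicate numbers were not taken as pairs in the main fit. Deviations of arrays with the same number correlated at -0.072, -0.008 and -0.048, which with 3 arrays per group cannot exclude a pairing by litter. The replicate block gave 249 higher and 62 lower. The difference of Ms4a6d was -0.05 without Ets1-/- replicate 3. For Ms4a1, Ms4a4a and Ms4a6c the size of the difference rests on WT signals near the bottom of the scale.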
